A study of Mus musculus with 24 samples.

Results

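The genes of peroxisomal and mitochondrial fatty acid oxidation were followed in lacrimal glands of female mice given testosterone (T) or placebo. The set held 37 named genes: 21 encode peroxisomal proteins, 14 encode mitochondrial proteins, and 2 belong to neither organelle (the cytosolic acyl-CoA thioesterase Acot1 and the nuclear receptor Ppara). Every probe whose annotated symbol was 1 of these genes was taken. On CodeLink (CL) Bioarrays this gave 36 probes for 35 genes, among 17440 probes for 10956 genes. On Affymetrix (Affy) GeneChips it gave 57 probe sets for all 37 genes, among 22690 probe sets for 12394 genes. Pex13 and Hadha had no annotated CL probe. After the filter on dim probes, 33 genes were tested on CL and 36 on Affy. On CL the Pex5 probe was near background and the Cpt1a spot was masked on every array, and on Affy Ppara did not pass.

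The glands came from 2 autoimmune strains that serve as models of Sjögren syndrome. MRL/lpr mice carry the lpr mutation of the Fas death receptor, and NOD (non-obese diabetic) mice also develop autoimmune diabetes. The 4 groups were MRL/lpr T, MRL/lpr placebo, NOD T and NOD placebo. T mice had a 10 mg pellet of the androgen, worn for 18 days by MRL/lpr mice and for 21 days by NOD mice according to the labels. The study's methods describe a slightly longer period for the MRL/lpr mice. MRL/lpr mice were 17 to 18 weeks old and NOD mice 21 weeks old. Each group had 3 pools of exorbital glands, of 6 mice per pool in MRL/lpr and 2 to 4 in NOD. Each pool's RNA was hybridised to 1 CL and 1 Affy array, so the platforms read the same pools and are not independent samples. Strain, age, days of treatment and pool size changed together and cannot be told apart.

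Fatty acid oxidation shortens acyl chains in steps that release acetyl-CoA. Peroxisomes take very-long-chain and branched fatty acids: α-oxidation removes 1 carbon from phytanic acid, and peroxisomal β-oxidation then shortens the chain, with hydrogen peroxide as a by-product that catalase breaks down. Mitochondria take long, medium and short chains through the carnitine shuttle and pass the electrons to the respiratory chain through the electron transfer flavoprotein. PPARα, the nuclear receptor encoded by Ppara, is known in liver as an activator of many genes of both organelles.

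CL values are spot intensities divided by the array's median, and Affy values are probe set intensities scaled here to the same trimmed mean of 500 on every array. A gene was represented by its brightest probe. Changes are on the log2 scale, and a change was called at an adjusted p under 0.05 (limma, Benjamini-Hochberg adjustment over all probes). Near-background flags covered 47.2% to 61.0% of CL spots per array, and correlations of log2 values within groups were 0.932 to 0.982 on CL and 0.925 to 0.989 on Affy. The Affy array of NOD T pool 1 stood apart: its deposited trimmed mean was 43.2, against 150 and 141 in the other NOD T pools, and it correlated with them at 0.925 and 0.93.

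Markers of other cells moved with T. The summed signal of 12 leukocyte markers on CL was 47.0 to 71.2 in MRL/lpr T pools against 75.4 to 94.1 in placebo pools, and 79.6 to 108 in NOD T pools against 38.4 to 49.0 in placebo pools. On Affy, 15 markers summed to 8870 to 11640 in MRL/lpr T pools against 15378 to 18484 in placebo pools, and to 10028 to 24386 in NOD T pools against 4377 to 6293 in placebo pools. Leukocyte markers were called lower with T in MRL/lpr (4 of 12 on CL and 3 of 15 on Affy) and higher in NOD (9 of 12 and 9 of 15). Of all genes, 6.45% and 3.87% were called lower in MRL/lpr, and 8.58% and 6.52% higher in NOD. Called or not, 10 of 12 and 14 of 15 lay below 0 in MRL/lpr, and 10 of 12 and 15 of 15 above 0 in NOD. Of the lacrimal acinar list, 5 genes on Affy summed to 19280 to 27079 in NOD T pools and 38162 to 51745 in placebo pools. There, 6 duct and epithelial genes summed to 29610 to 43461 in NOD T pools and 47857 to 50282 in placebo pools. Of these NOD genes, 2 of 5 acinar ones were called lower, and duct genes had 1 call each way. The NOD acinar changes ran from -1.11 to 1.22, with 1 of 5 above 0. In MRL/lpr on Affy, 1 of 5 acinar genes was called higher and 0 lower, with changes from -0.23 to 4.67. Acinar sums there were 37396 to 44654 with T and 32507 to 40734 with placebo. Duct sums there were 57451 to 60220 and 58765 to 69686, so both overlapped. On CL, T and placebo duct sums were 224 to 256 and 279 to 326 in MRL/lpr, and 193 to 223 and 112 to 245 in NOD. Of 6 duct genes tested on CL, 2 were called lower in MRL/lpr and 0 were called in NOD. The 2 acinar genes on CL summed lower under T in both strains, without overlap. On CL, 6 adipocyte markers summed to 19.5 to 32.7 in MRL/lpr T pools against 44.3 to 49.2 in placebo pools, and to 14.4 to 20.0 in NOD T pools against 16.1 to 21.5 in placebo pools. On Affy, 7 adipocyte markers summed to 969 to 1996 in MRL/lpr T pools against 1803 to 2333 in placebo pools. In NOD they summed to 463 to 665 in T pools against 722 to 971 in placebo pools, so the NOD sums were apart on Affy and overlapped on CL. Single markers still moved on CL: of 5 tested, 3 were called lower and 1 higher in NOD (-1.88 to 1.04), and 2 lower in MRL/lpr. On Affy, 0 of 5 tested were called in either strain. Cidea, a marker of brown fat, was near background in every group on CL but in neither MRL/lpr group on Affy, and Ucp1, another, was near background on both platforms in MRL/lpr T and NOD T. Of the skeletal muscle markers, 3 to 5 of 5 on CL and 2 to 3 of 8 on Affy were near background per group, and the Affy sums ran from 193 to 1108 over all pools, with T and placebo overlapping in both strains. On CL, 2 erythrocyte markers, 1 near background in every group, summed to 0.55 to 82.9 in MRL/lpr T pools against 86.6 to 109 in placebo pools. In NOD they summed to 20.9 to 51.0 against 76.9 to 92.1. On Affy the erythrocyte sums overlapped in both strains, and no erythrocyte marker was called with T on either platform. The part of these markers in the members' changes was not tested, and in whole glands fewer cells of a type and less RNA per cell cannot be told apart.

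With T, 5 to 8 members were called per strain and platform, among them Phyh, lower in both strains on both platforms. On CL the share called was close to that of all genes. In MRL/lpr glands, 5 of 33 members were called on CL (2 higher, 3 lower), against 13.1% of all genes tested (6.62% higher, 6.45% lower). On Affy 7 of 36 were called (3 higher, 4 lower), against 7.44% (3.56% higher, 3.87% lower). In NOD glands, 5 of 33 were called on CL (0 higher, 5 lower), against 17.1% of all genes (8.58% higher, 8.56% lower). On Affy 8 of 36 were called (1 higher, 7 lower), against 10.6% (6.52% higher, 4.05% lower). Both platforms called Phyh, Acadm and Crat in MRL/lpr, 3 of the 32 members tested on both (3.75% of all genes on both), and Phyh, Acot1 and Acadl in NOD (5.82%). Each of these pairs of calls had the same direction. Pools of T and placebo that did not overlap were common among all genes, at 36.1% on CL and 29.8% on Affy in MRL/lpr and at 36.7% and 29.0% in NOD. Over all 5 comparisons, 21 of 33 members on CL and 23 of 36 on Affy were never called. The matching share of all genes was not counted, so these counts cannot be set against a background. Without NOD T pool 1 the Affy count in MRL/lpr was 12, and it was 3 without MRL/lpr placebo pool 1 or 2 or T pool 2 or 3. Calls over all Affy probe sets moved from 594 higher and 640 lower with all pools to 1019 and 1141 without NOD T pool 1. Without MRL/lpr placebo pool 1 or 2 they were 369 and 323, and 323 and 321. Without MRL/lpr T pool 2 or 3 they were 408 and 378, and 418 and 410. With Affy arrays scaled to their own median, no member was called higher, and 4 members were called lower in MRL/lpr glands and 6 in NOD glands. Over all probe sets that scaling gave 347 higher and 532 lower calls in MRL/lpr, and 748 and 538 in NOD. With no filter on dim probes, Affy called 3 higher and 2 lower in MRL/lpr, beside 494 and 507 over all probe sets. With Affy signals as deposited, the MRL/lpr call was Phyh alone, lower, and NOD had 3 calls higher and Phyh lower. Over all probe sets these signals gave 48 higher and 47 lower calls in MRL/lpr, and 1989 and 49 in NOD. The Affy count in NOD was 5 without NOD placebo pool 1 or 2 or NOD T pool 3. Over all probe sets NOD had 989 higher and 660 lower calls with all pools. In these fits it had 697 and 357, 674 and 350, and 748 and 587.

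**Figure D1:**
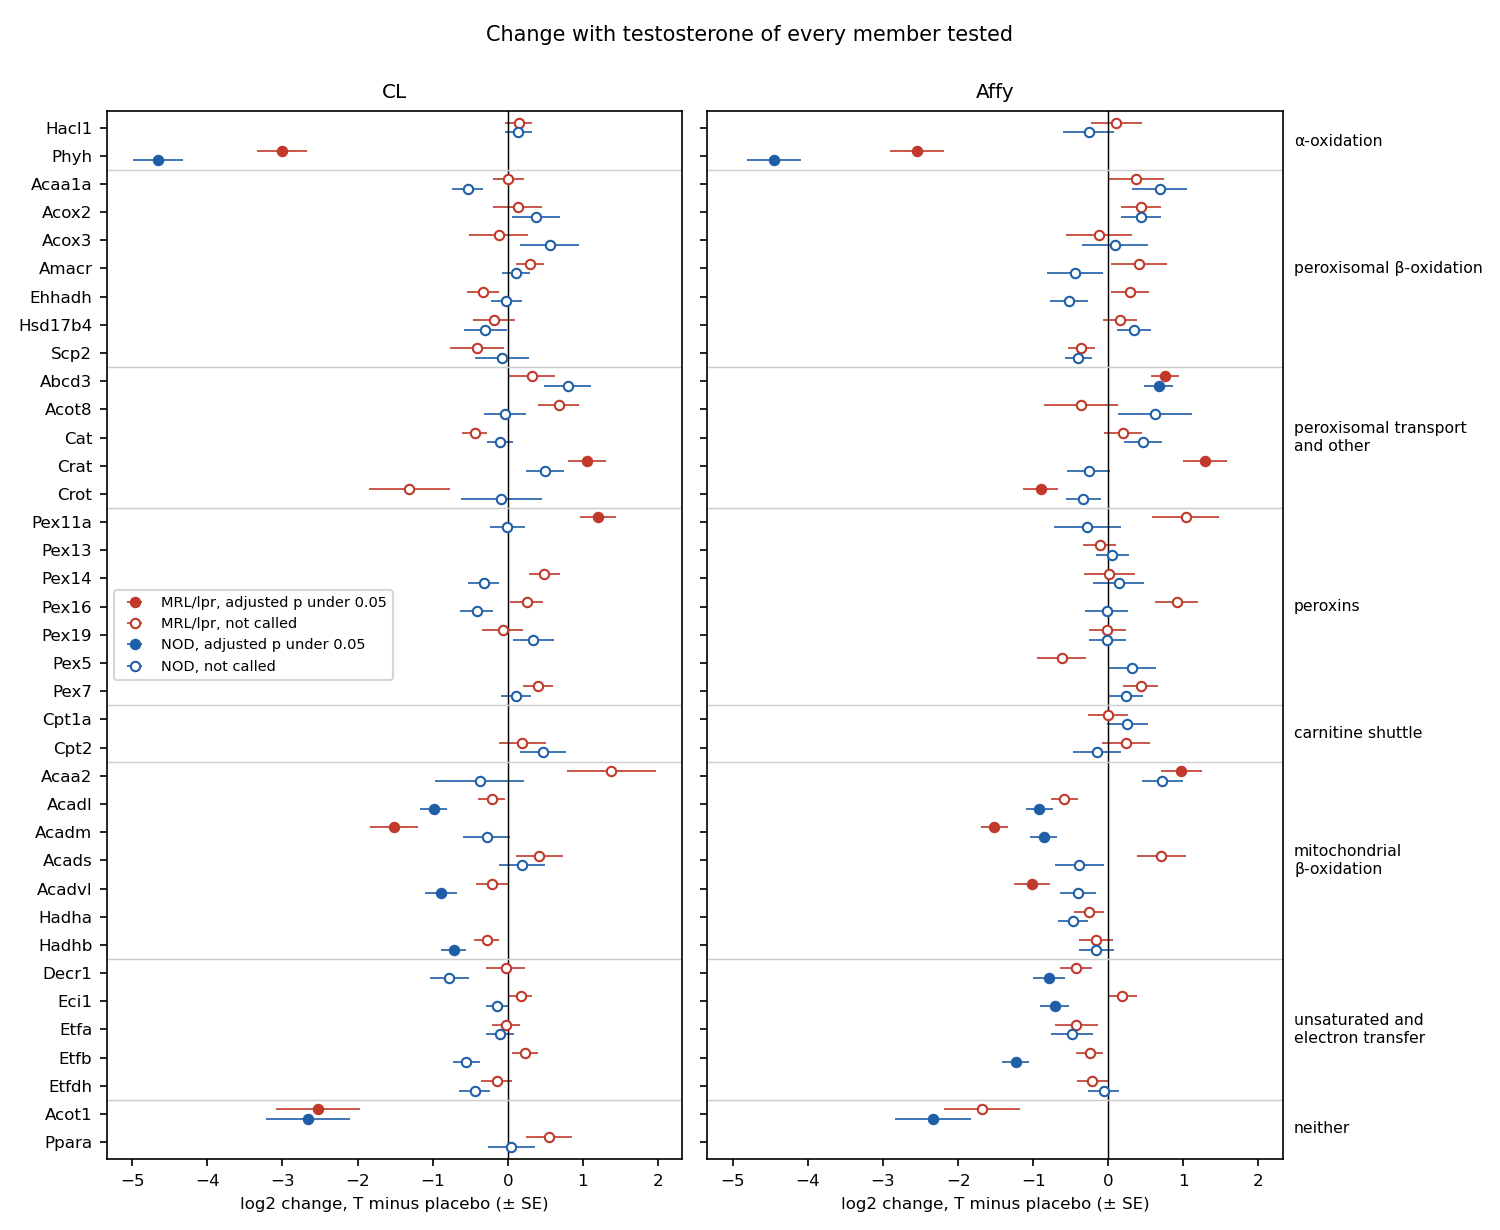
The log2 change with T (T minus placebo, bars ± SE) of every member tested is shown for CL on the left and Affy on the right, with MRL/lpr in red, NOD in blue and filled points for adjusted p under 0.05. Phyh lies at -3.01 and -4.66 on CL and at -2.55 and -4.45 on Affy in MRL/lpr and NOD, and most other members lie near 0.

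Phyh encodes phytanoyl-CoA hydroxylase, which carries out the committed step of α-oxidation. It had the largest change with T of all members tested in both strains and on both platforms. On CL, Phyh read 175, 76.7 and 60.1 in MRL/lpr T pools against 745, 804 and 703 in placebo pools. In NOD it read 39.1, 41.7 and 25.8 in T pools against 970, 842 and 826 in placebo pools. Every T pool lay far below every placebo pool of its strain. The fall was -3.01 ± 0.34 (SE) in MRL/lpr (8.04-fold, adjusted p = 8.71e-05) and -4.66 ± 0.34 in NOD (25.2-fold, adjusted p = 2.87e-06). On Affy, Phyh read 18806, 7121 and 8958 in MRL/lpr T pools against 60106, 64698 and 61686 in placebo pools, a change of -2.55 ± 0.36 (adjusted p = 0.000253). In NOD it read 2008, 4547 and 3083 in T pools against 88457, 79895 and 41813 in placebo pools, a change of -4.45 ± 0.36 (adjusted p = 3.37e-07). The groups again did not overlap. Before scaling, the NOD placebo pools read 7975, 8257 and 6897 on arrays whose brightest probe sets read 10721 to 11186. Hacl1, the lyase that cleaves the product of Phyh, changed by 0.15 and 0.14 on CL and by 0.11 and -0.26 on Affy in MRL/lpr and NOD, and was not called.

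The estimated fall of Phyh was deeper in NOD on both platforms, but only Affy called the difference. Of 22 alternative fits, those without 1 pool included, 16 lost that call. The change in NOD minus that in MRL/lpr was -1.90 ± 0.51 on Affy (adjusted p = 0.0458) and -1.65 ± 0.47 on CL, where it missed the threshold (adjusted p = 0.0567). The Affy call was lost in 10 of 12 fits that left out 1 pool (those without MRL/lpr T or placebo pools 1 to 3, NOD T pool 1 or 3, or NOD placebo pool 1 or 2), with values from -2.24 to -1.49 and adjusted p up to 0.168. The strains did not differ detectably under placebo (0.23 on CL and 0.10 on Affy, NOD minus MRL/lpr). Under T, Phyh was lower in NOD than in MRL/lpr by -1.42 on CL, with an adjusted p of 0.0155, and by -1.80 on Affy (adjusted p = 0.00422), although with Affy signals as deposited that value was 0.08, where the median of all probes was 1.52. The CL value was -0.97 without NOD T pool 3 (adjusted p = 0.0621). The methods' t-test, even unadjusted, called this strain difference under T on neither platform.

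Acot1, a cytosolic thioesterase that splits long-chain acyl-CoA into free fatty acid and CoA, fell in both strains on CL. It has close relatives in the same gene cluster that its probes may also read, so its level is uncertain. CL values were 2.63, 1.30 and 1.06 in MRL/lpr T pools against 9.87, 9.60 and 7.38 in placebo pools, a change of -2.53 ± 0.56 (adjusted p = 0.0102). In NOD it read 1.52, 1.34 and 1.54 in T pools against 5.09, 5.52 and 28.1 in placebo pools, a change of -2.66 ± 0.56 (adjusted p = 0.00571). T and placebo pools did not overlap, and NOD placebo pool 3 stood far above the rest. Without it the NOD change was -1.86 on CL and -1.57 on Affy, both still called, and the methods' t-test, unadjusted on all pools, called neither NOD change. On Affy, Acot1 read 120, 141 and 192 in MRL/lpr T pools against 563, 421 and 458 in placebo pools, a change of -1.69 ± 0.50 that missed the threshold (adjusted p = 0.0535). In NOD it read 190, 85.7 and 154 in T pools against 476, 342 and 1974 in placebo pools, a change of -2.33 ± 0.50 (adjusted p = 0.00572). The CL changes of the 2 strains differed by -0.13 ± 0.79 and the Affy changes by -0.65 ± 0.71, neither called.

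Acadm encodes medium-chain acyl-CoA dehydrogenase, the first enzyme of mitochondrial β-oxidation for medium chains. On CL it read 2.95, 2.78 and 1.20 in MRL/lpr T pools against 7.54, 5.38 and 5.68 in placebo pools. The Affy probe set read 3800, 3332 and 2746 in T pools against 8705, 9303 and 10050 in placebo pools. Both platforms gave a change of -1.52 (SE 0.32 on CL and 0.18 on Affy, adjusted p = 0.00751 and 3.08e-05). In NOD, CL read 14.9, 10.8 and 12 in T pools and 16.8, 12.9 and 15.9 in placebo pools, overlapping groups that differed by -0.28 (adjusted p = 0.612). The same probe set read 1829, 2260 and 2154 in NOD T pools against 3868, 3394 and 4064 in placebo pools, a change of -0.86 ± 0.18 (adjusted p = 0.00412). Neither platform called a difference between the strains in this change (1.24 ± 0.45 on CL and 0.66 ± 0.25 on Affy, adjusted p = 0.13 and 0.186).

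**Figure D2:**
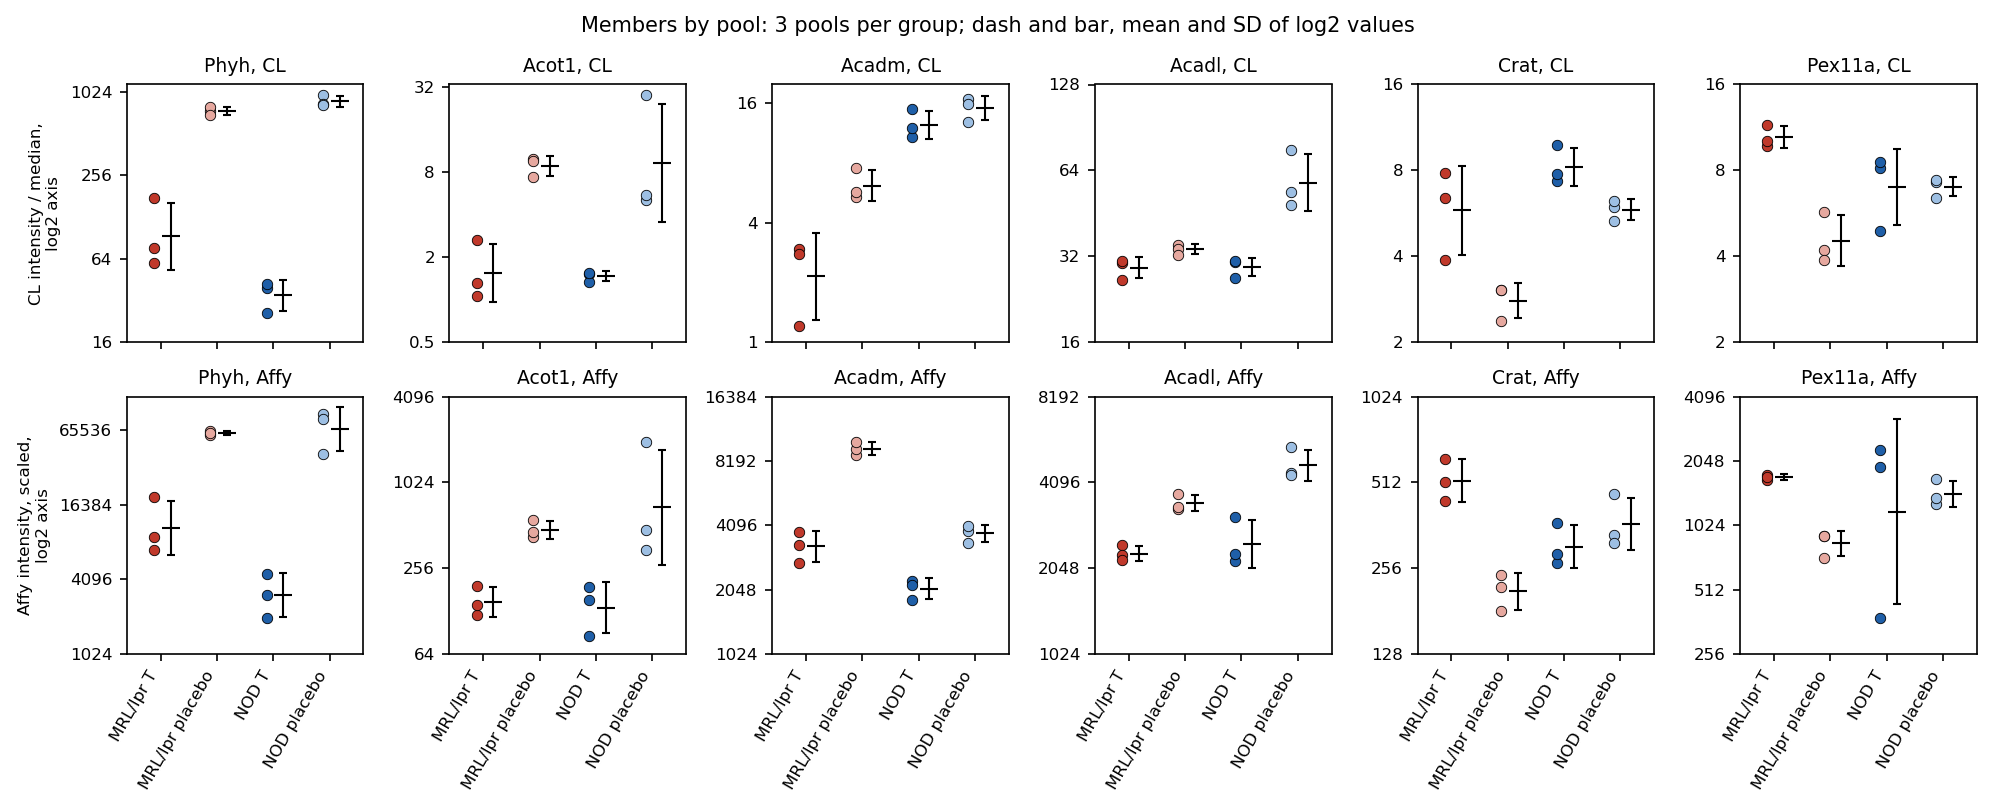
Each point is 1 pool of Phyh, Acot1, Acadm, Acadl, Crat or Pex11a, with CL values above and scaled Affy values below on log2 axes, and the dash and bar give the mean and SD of log2 values of the 3 pools. All T pools of Phyh and Acot1 lie below all placebo pools of their strain, and NOD T pool 1 of Pex11a on Affy reads 376 beside 1927 and 2306.

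The promoter windows of these 3 genes are printed because each was called lower with T on both platforms in at least 1 strain, as Acadl, not printed, also was. The windows, from RefSeq on GRCm38.p6, run from 250 bases before to 50 bases after the start site, 5′ to 3′ on the gene's strand. Capitals mark matches to 4 short motifs searched on both strands: AGGTCA (the nuclear receptor half-site), AGAACA (the androgen receptor half-site), CCAAT and GGGCGG. The Phyh window is chr2:4918746-4919045 on the plus strand, the Acot1 window chr12:84009252-84009551 on the plus strand, and the Acadm window chr3:153944594-153944893 on the minus strand.
Phyh: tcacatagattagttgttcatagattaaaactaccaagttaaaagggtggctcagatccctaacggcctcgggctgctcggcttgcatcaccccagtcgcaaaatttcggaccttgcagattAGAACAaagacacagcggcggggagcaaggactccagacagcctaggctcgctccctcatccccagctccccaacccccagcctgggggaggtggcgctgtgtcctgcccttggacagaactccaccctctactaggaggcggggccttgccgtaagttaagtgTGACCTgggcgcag
Acot1: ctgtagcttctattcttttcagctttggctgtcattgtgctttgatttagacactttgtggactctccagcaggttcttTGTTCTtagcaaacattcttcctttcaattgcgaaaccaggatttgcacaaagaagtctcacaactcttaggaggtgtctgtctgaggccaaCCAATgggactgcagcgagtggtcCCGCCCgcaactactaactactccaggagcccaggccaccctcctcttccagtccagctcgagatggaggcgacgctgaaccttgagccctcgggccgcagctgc
Acadm: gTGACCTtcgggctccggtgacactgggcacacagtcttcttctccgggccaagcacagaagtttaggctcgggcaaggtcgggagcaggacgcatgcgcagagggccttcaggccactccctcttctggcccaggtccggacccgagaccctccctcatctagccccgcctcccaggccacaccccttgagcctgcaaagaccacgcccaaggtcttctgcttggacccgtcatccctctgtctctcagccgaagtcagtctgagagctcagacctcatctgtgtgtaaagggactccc
In the Phyh window the capitals are AGAACA and, on the other strand, AGGTCA. In Acot1 they are AGAACA on the other strand, CCAAT, and GGGCGG on the other strand. In Acadm they are AGGTCA on the other strand. Windows were at hand for 31 of the 37 members, 36 windows in all. AGGTCA was in 6 of these 36 windows (16.7%) and in 16.3% of all 32851 windows. AGAACA was in 5 of 36 (13.9%) against 19% of all, CCAAT in 16 of 36 (44.4%) against 37.4%, and GGGCGG in 26 of 36 (72.2%) against 35.7%. TATAAA, also searched and in none of the printed windows, was in 2 of 36 (5.56%) against 13.6%. The PPAR element, a direct repeat of AGGTCA with 1 base of any kind between, matched 0 of 36 and 0.0396% of all windows. The full androgen receptor element, AGAACA followed by 3 bases of any kind and its own reverse complement, matched 0 of 36 and 0.00913% of all. These shares describe the letters of the windows only.

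Peroxisomal β-oxidation itself showed no call with T. None of its 7 members (Acox2 and Acox3, the oxidases of branched chains; Ehhadh and Hsd17b4, the bifunctional enzymes; Acaa1a and Scp2, the thiolases; Amacr, the racemase that readies branched chains) passed the test in either strain on either platform, where 13.1% and 17.1% of all genes on CL and 7.44% and 10.6% on Affy did in MRL/lpr and NOD, so a count of 0 among 7 is near the background. Their changes ran between -0.53 for Acaa1a in NOD and 0.56 for Acox3 in NOD on CL, and between -0.52 for Ehhadh in NOD and 0.68 for Acaa1a in NOD on Affy. Acaa1a and its near-identical copy Acaa1b may share signal, so its values are uncertain, and its dimmer CL probe gave 1.29 in NOD where the brighter gave -0.53, neither called. Hsd17b4 and Scp2 were the peroxisomal members with the strongest Affy signal after Phyh. Hsd17b4 read 8129, 7733 and 6167 in MRL/lpr T pools and 5379, 7231 and 7189 in placebo pools, and 14374, 7954 and 8624 in NOD T pools and 7594, 8079 and 7910 in placebo pools. Scp2 read 4845, 5379 and 4010 in MRL/lpr T pools and 5515, 6153 and 6496 in placebo pools, and 4204, 4551 and 4331 in NOD T pools and 6428, 6281 and 4716 in placebo pools. Hsd17b4 overlapped between T and placebo in both strains, and Scp2 lay lower under T in every pool without a call (-0.36 and -0.40, adjusted p = 0.271 and 0.219). Over the 3 Affy probe sets of Scp2 the changes ran up to 0.65 in both strains, so the probe sets disagreed in direction, and none was called.

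Of the peroxisomal transfer genes, Crat rose in MRL/lpr and Abcd3 rose in both strains on Affy. Crat encodes carnitine acetyltransferase, which moves short acyl groups between CoA and carnitine in both organelles. CL values of Crat were 6.41, 7.83 and 3.89 in MRL/lpr T pools against 3.03, 3.04 and 2.37 in placebo pools, a change of 1.05 ± 0.25 (adjusted p = 0.0172). On Affy it read 620, 442 and 513 in T pools against 181, 242 and 220 in placebo pools, a change of 1.29 ± 0.29 (adjusted p = 0.011). All MRL/lpr T pools lay above all placebo pools on both platforms. A second, dimmer Affy probe set of Crat changed by -0.09. In NOD, Crat changed by 0.50 on CL and -0.26 on Affy, not called, and the difference between strains was called on Affy (-1.55 ± 0.41, adjusted p = 0.0403) but not on CL (-0.55 ± 0.36). The Crat calls in MRL/lpr were lost in some fits without 1 pool. The CL call was lost without MRL/lpr placebo pool 3 or T pool 1 or 2 (adjusted p up to 0.0745), and the Affy call without MRL/lpr placebo pool 1 (0.0503). Over the 12 such fits per platform the change was 0.84 to 1.34 on CL and 1.16 to 1.41 on Affy. The strain difference was lost without any of 8 pools (adjusted p up to 0.128): MRL/lpr placebo pools 1 to 3, MRL/lpr T pools 1 and 3, NOD placebo pools 1 and 2, and NOD T pool 3.

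Abcd3, the peroxisomal membrane transporter PMP70, read 5652, 5325 and 5740 in MRL/lpr T pools against 3172, 2973 and 3809 in placebo pools on Affy (0.76 ± 0.19, adjusted p = 0.024). In NOD it read 9082, 5680 and 7080 in T pools against 4906, 4590 and 4010 in placebo pools (0.67 ± 0.19, adjusted p = 0.0355). The pools of each strain did not overlap. The dim CL probe changed by 0.32 and 0.80 in MRL/lpr and NOD, not called. The MRL/lpr call was lost without any of 5 pools (adjusted p up to 0.112), namely placebo pools 1 and 2 and T pools 1 to 3 of that strain. The NOD call was lost without any of 8 pools (adjusted p up to 0.12): NOD placebo pools 1 to 3, NOD T pool 3, MRL/lpr placebo pools 1 and 2, and MRL/lpr T pools 1 and 2. Crot, the octanoyltransferase that hands medium chains on from peroxisomes, read 2161, 1581 and 1725 in MRL/lpr T pools against 2915, 3031 and 4348 in placebo pools on Affy and fell (-0.90 ± 0.24, adjusted p = 0.0284). The CL change of Crot was -1.31 ± 0.54 (adjusted p = 0.155). The Affy call was lost without any of 6 pools (adjusted p up to 0.153), namely MRL/lpr placebo pools 1 to 3, MRL/lpr T pools 2 and 3, and NOD placebo pool 1. The brightest probes of Cat (catalase) and Acot8 (a peroxisomal thioesterase) were not called, although a dimmer Affy probe set of Cat was called higher in NOD (1.13 ± 0.32, adjusted p = 0.0341).

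Pex11a was the only peroxin called, out of 5 tested on CL and 7 on Affy, a share near that of all genes called with T in MRL/lpr (13.1% and 7.44%). PEX11α is a membrane protein known for its part in the elongation and division of peroxisomes. On CL it read 11.6, 9.70 and 10.2 in MRL/lpr T pools against 4.22, 5.73 and 3.87 in placebo pools and rose by 1.20 ± 0.24 (adjusted p = 0.00552). The NOD pools read 8.16, 4.90 and 8.53 under T and 6.41, 7.27 and 7.38 under placebo, a difference of -0.00. MRL/lpr pools were thus apart and NOD pools overlapped. The difference between strains was -1.21 ± 0.33 (adjusted p = 0.0485), and it was lost in 9 of 12 fits without 1 pool (adjusted p up to 0.114), all but those without MRL/lpr placebo pool 2 or NOD T pool 1 or 3. On Affy, Pex11a read 1768, 1672 and 1727 in MRL/lpr T pools against 720, 912 and 915 in placebo pools, which did not overlap, but the change of 1.03 ± 0.44 was not called (adjusted p = 0.186). It was called without NOD T pool 1, the array that stood apart.

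With T in NOD glands, most mitochondrial members lay below 0 on both platforms, and a few of them were called. Their median change in NOD was -0.41 on CL, where the median of all genes tested was -0.09, and -0.44 on Affy, where it was 0.00. Of 12 members on CL, 10 lay below 0 and 3 were called lower; of 14 on Affy, 12 lay below 0 and 5 were called lower. In all NOD genes, 8.56% on CL and 4.05% on Affy were called lower. In MRL/lpr the mitochondrial median was -0.02 on CL and -0.23 on Affy. The peroxisomal median was -0.02 on CL and 0.06 on Affy in NOD, and 0.13 and 0.16 in MRL/lpr. With Affy signals as deposited, not rescaled, the median of all genes in NOD moved to 0.58 and that of the mitochondrial members to 0.31, so the members lay below all genes by -0.27 but no longer below 0.

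Acadl, the long-chain acyl-CoA dehydrogenase, fell in NOD on both platforms. On CL it read 30.5, 26.9 and 30.7 in T pools against 48.2, 53.7 and 75.2 in placebo pools (-0.98 ± 0.18, adjusted p = 0.00248). On Affy it read 3103, 2163 and 2304 in T pools against 4431, 4338 and 5442 in placebo pools (-0.92 ± 0.18, adjusted p = 0.00286). No T pool reached a placebo pool. In MRL/lpr the change was -0.21 on CL and -0.59 on Affy (adjusted p = 0.527 and 0.0617).

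Acadvl, the very-long-chain acyl-CoA dehydrogenase of the inner membrane, was called in a different strain on each platform. The CL probe read 12.1, 13.7 and 16.9 in NOD T pools against 26.7, 25.4 and 26 in placebo pools (-0.89 ± 0.22, adjusted p = 0.0147), and without NOD T pool 1 it was not called (-0.78, adjusted p = 0.0563). On Affy it read 844, 633 and 680 in MRL/lpr T pools against 1225, 1835 and 1328 in placebo pools (-1.01 ± 0.24, adjusted p = 0.0153). This call was lost without MRL/lpr placebo pool 2 or T pool 2 or 3 (adjusted p up to 0.099). The groups behind each call did not overlap, and the difference between strains was called on neither platform. Hadhb, the β-subunit of the trifunctional protein, fell in NOD on CL, with 68.0, 63.7 and 66.1 in T pools against 96.8, 114 and 115 in placebo pools (-0.72 ± 0.17, adjusted p = 0.0115). This call was lost with quantile normalization and with normexp on the raw intensities, where the change was as small as -0.35 (adjusted p up to 0.232). The Affy change was -0.16 ± 0.23, and NOD T pool 1, at 7773, lay above every placebo pool.

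Acaa2, the thiolase of the mitochondrial spiral, was the mitochondrial member that rose. On Affy its brightest probe set read 2161, 2551 and 2296 in MRL/lpr T pools against 1197, 1401 and 995 in placebo pools (0.97 ± 0.27, adjusted p = 0.037), and all 3 of its probe sets were called higher there, by 0.97 to 2.35. The T and placebo pools were apart. The CL change was 1.38 ± 0.59 (adjusted p = 0.175). The Affy call was lost without any of 8 pools (adjusted p up to 0.161): each MRL/lpr pool, and NOD placebo pools 1 and 3. In NOD, Acaa2 changed by 0.72 on Affy and -0.37 on CL, not called, although 1 of its dimmer Affy probe sets was called higher (1.19 ± 0.26, adjusted p = 0.00646). Acads, the short-chain dehydrogenase, Hadha, the other trifunctional subunit, and Cpt1a and Cpt2 of the carnitine shuttle were not called in any comparison in which they were tested.

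Among enzymes for unsaturated chains and electron transfer, 3 members fell in NOD on Affy. Etfb encodes the β-subunit of the electron transfer flavoprotein. It read 1417, 1748 and 1752 in NOD T pools against 4218, 3627 and 3691 in placebo pools (-1.23 ± 0.18, adjusted p = 0.000175). On CL it read 11.6, 10.8 and 13.0 in NOD T pools against 15.9, 18.9 and 17 in placebo pools (-0.55 ± 0.18, adjusted p = 0.0549). T pools were below placebo pools on both platforms. The difference from the MRL/lpr change was -0.99 ± 0.25 on Affy (adjusted p = 0.034) and -0.78 ± 0.25 on CL (adjusted p = 0.0841), and the Affy call was lost in 7 of 12 fits without 1 pool, those without any 1 placebo pool or MRL/lpr T pool 2 (adjusted p up to 0.0933). With Affy signals as deposited that difference was 0.25, where the median of all probes was 0.96. Its partner Etfa, the mitochondrial member with the strongest CL signal, read 71.6, 86.1 and 74.8 in NOD T pools and 90.4, 65.4 and 95.9 in placebo pools on CL, which overlapped. It changed by -0.10 on CL and -0.48 on Affy in NOD, not called, and so did Etfdh, the flavoprotein's oxidoreductase, at -0.44 and -0.06.

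Decr1, the dienoyl-CoA reductase, read 1241, 1006 and 691 in NOD T pools against 1701, 1570 and 1690 in placebo pools on Affy (-0.80 ± 0.21, adjusted p = 0.0236). The CL change was nearly the same size but was not called (-0.78 ± 0.26, adjusted p = 0.0644). Eci1, an enoyl-CoA isomerase, read 724, 757 and 627 in NOD T pools against 1191, 1233 and 1030 in placebo pools on Affy (-0.71 ± 0.19, adjusted p = 0.0241). It changed by -0.14 on CL, and by 0.04 with Affy signals as deposited, where all probes had a median of 0.62. T and placebo pools were apart on Affy for both genes. Both calls were lost in some fits without 1 pool. Decr1 was lost without any 1 NOD placebo pool or NOD T pool 3 (adjusted p up to 0.125), and Eci1 without NOD placebo pool 1 or 2 or NOD T pool 3 (0.104). A dimmer Affy probe set of Decr1 was called lower in NOD than in MRL/lpr under T (-1.39 ± 0.35, adjusted p = 0.0162).

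**Figure D3:**
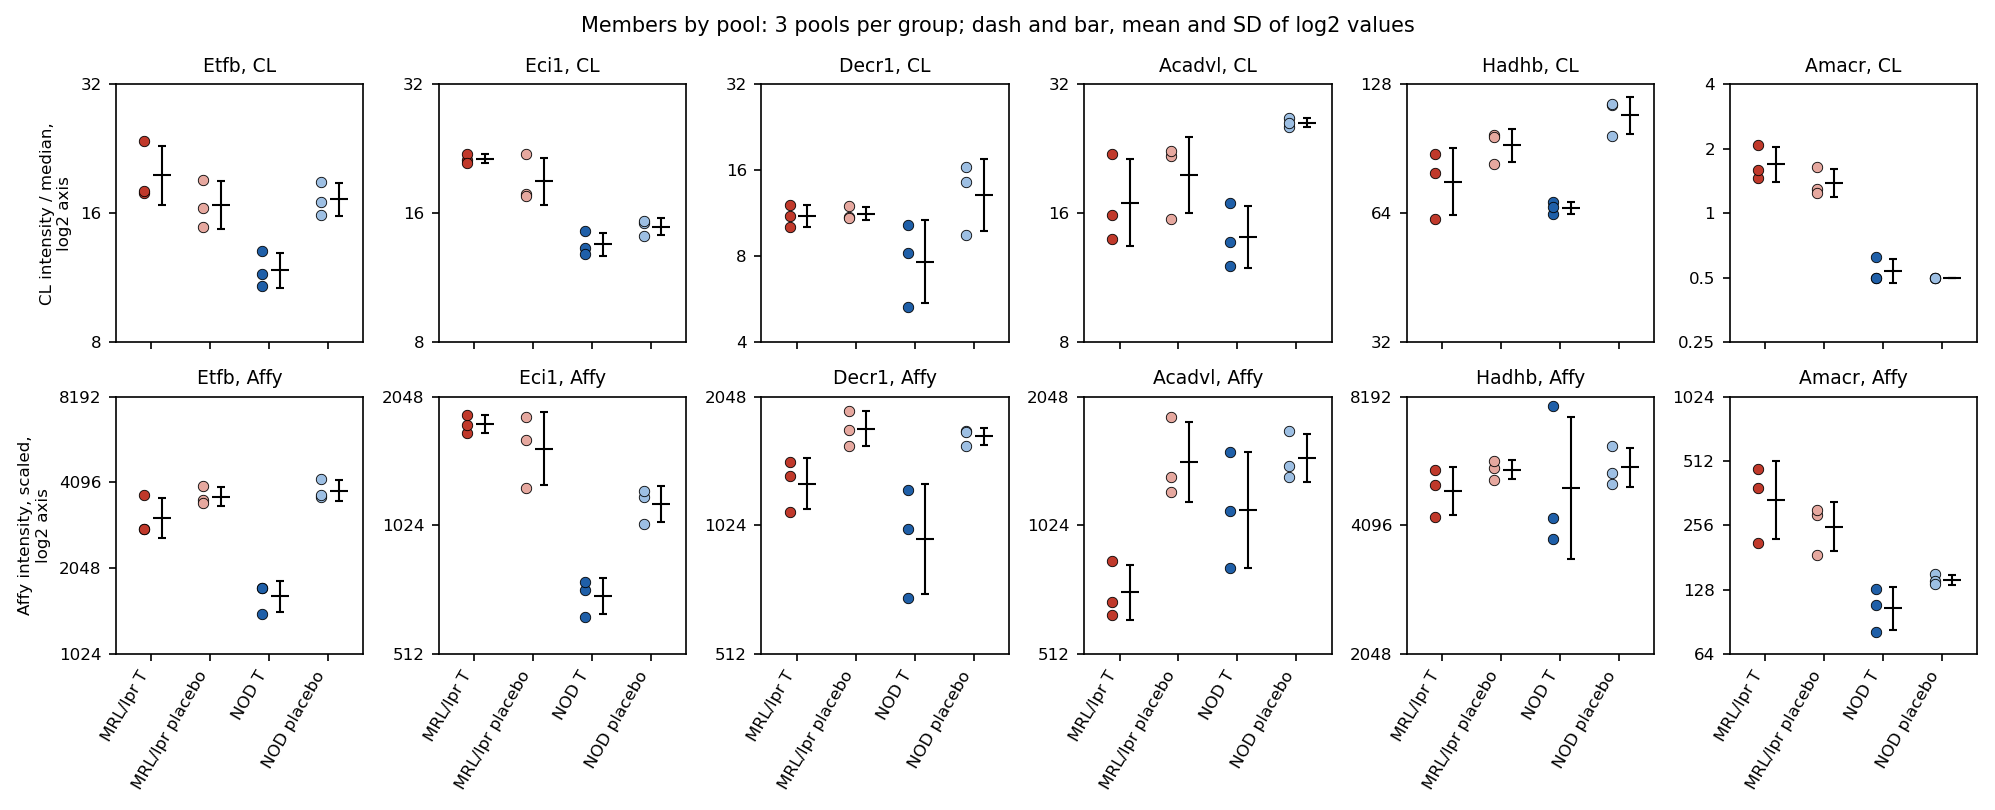
Each point is 1 pool of Etfb, Eci1, Decr1, Acadvl, Hadhb or Amacr, with CL values above and scaled Affy values below on log2 axes, and the dash and bar give the mean and SD of log2 values of the 3 pools (values under the floor are drawn at it). Etfb in NOD T pools lies below all other pools on both platforms, and Amacr in NOD pools lies below all MRL/lpr pools on both.

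Set against MRL/lpr, NOD glands had 1 to 6 members called per treatment and platform, given here beside the shares of all genes. Under T, 6 of 33 were called on CL (1 higher, 5 lower), against 13.0% of all genes (5.96% higher, 7.09% lower), and 5 of 36 on Affy, all lower, against 10.8% (5.73% higher, 5.02% lower). Both platforms placed Phyh, Amacr, Eci1 and Etfb lower in NOD, 4 of the 32 members tested on both (3.70% of all genes were called in the same direction on both). With Affy signals as deposited, the median of all probes in this comparison moved to 1.52, and the values of these 4 members and of Acadm were above 0 (0.08 to 1.23). Under placebo, 4 of 33 were called on CL (3 higher, 1 lower), against 10.4% of all genes (4.57% higher, 5.85% lower). On Affy 1 of 36 was called, lower, against 5.91% (1.75% higher, 4.15% lower), and no member was called in the same direction on both (3.46%). For the difference between strains in the T change, CL called 1 member (8.51%) and Affy 3 (4.61%), and no member was called by both (2.40%). The NOD and MRL/lpr pools did not overlap for 31.5% of all genes on CL and 28.6% on Affy under T, and for 35.3% and 28.1% under placebo. The CL count under placebo was 1 or 2 without any of MRL/lpr placebo pools 1 to 3 or NOD placebo pool 1. Over all CL probes, 635 were called higher and 664 lower under placebo with all pools. In these fits the calls were 393 and 415, 411 and 428, 465 and 555, and 586 and 526. Without NOD T pool 1 the Affy counts were 8 under T and 3 under placebo. Over all probe sets that fit gave 1070 higher and 1109 lower calls, and 574 and 908. With all pools Affy gave 964 and 934, and 318 and 637.

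Amacr read 0.63 at most in NOD pools and 1.25 at least in MRL/lpr pools on CL. The NOD pools were near background, so the difference under T was a bound, at least 1.69-fold lower in NOD than in MRL/lpr (adjusted p = 0.000111). On Affy, Amacr read 130, 109 and 81.4 in NOD T pools against 382, 211 and 472 in MRL/lpr T pools (-1.68 ± 0.37, adjusted p = 0.00792), and 151, 140 and 136 in NOD placebo pools against 187, 286 and 302 in MRL/lpr placebo pools (-0.83, adjusted p = 0.274). On CL it was also the member called lower under placebo (adjusted p = 0.00045). No NOD pool reached an MRL/lpr pool. Eci1 read 13.2, 12.9 and 14.5 in NOD T pools against 21.3, 22.0 and 21.0 in MRL/lpr T pools on CL (-0.66 ± 0.15, adjusted p = 0.0124). Its Affy values were 724, 757 and 627 in NOD T pools against 1682, 1757 and 1854 in MRL/lpr T pools (-1.33 ± 0.19, adjusted p = 0.000264). Etfb was lower in NOD under T by -0.74 ± 0.18 on CL and -0.92 ± 0.18 on Affy (adjusted p = 0.0166 and 0.00325), with no overlap. The CL call was lost without MRL/lpr T pool 1 or NOD T pool 2 (adjusted p up to 0.0611). Acaa1a was lower in NOD under T on CL (-0.98 ± 0.21, adjusted p = 0.00859) and by -0.20 on Affy, not called. The CL call of Acaa1a was lost with quantile normalization, with normexp on the raw intensities (-0.66) and as the mean of its probes (adjusted p up to 0.222). In the same comparison the CL call of Phyh was lost with quantile normalization and with normexp, and that of Eci1 with normexp (-0.42, adjusted p = 0.0513).

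Acadm was called in opposite directions by the platforms. NOD minus MRL/lpr was 2.54 on CL and -0.65 on Affy under T (adjusted p = 0.000219 and 0.0256), and 1.30 and -1.31 under placebo (adjusted p = 0.0228 and 0.000131). Of all genes tested on both platforms, 0.280% under T and 0.118% under placebo were called in opposite directions. The pools shown above are apart in each case, so the order of the strains for Acadm is not settled. In single-pool fits the CL value under T and the Affy value under placebo stayed called. The Affy value under T was lost without MRL/lpr T pool 1 or 2 or NOD T pool 3 (adjusted p up to 0.0844), and the CL value under placebo without MRL/lpr placebo pool 2 or 3 or NOD placebo pool 1 or 3 (0.09). Under placebo, CL also placed Acadl (0.78, adjusted p = 0.0183) and Crat (1.06, adjusted p = 0.0215) higher in NOD. Acadl was lost without any MRL/lpr placebo pool (adjusted p up to 0.0614), and Crat without any MRL/lpr placebo pool or NOD placebo pool 1 or 2 (0.0826).

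**Figure D4:**
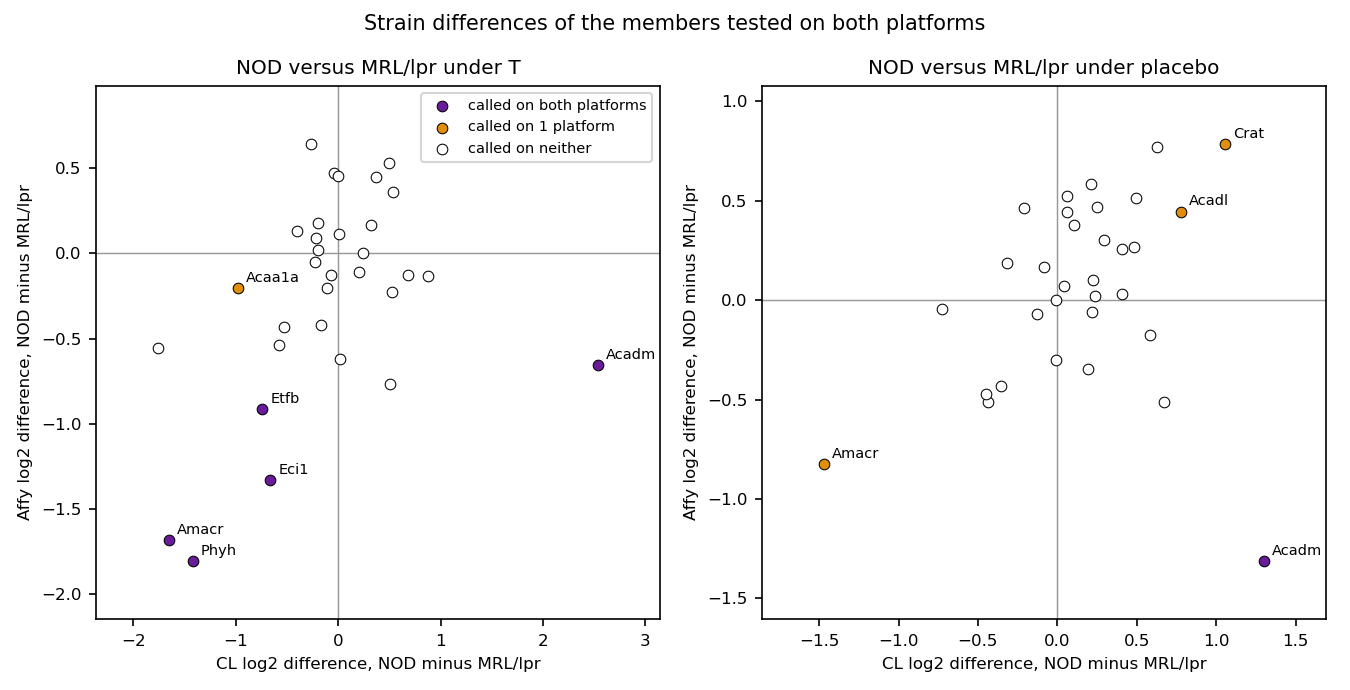
Each point is 1 member tested on both platforms, placed by its log2 difference NOD minus MRL/lpr on CL (horizontal) and Affy (vertical), under T on the left and under placebo on the right. Phyh, Amacr, Eci1 and Etfb lie in the lower left under T, and Acadm lies in the lower right in both panels.

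Other genes of these pathways, from lists that leave out the members, were called in both directions. Beside their counts stand shares of all genes called with T of 13.1% in MRL/lpr and 17.1% in NOD on CL, and of 7.44% and 10.6% on Affy, and the lists lay on both sides of these shares. Of 26 other peroxisomal genes on CL, MRL/lpr T pools had 1 called higher and 0 lower. NOD T pools had 2 of each. Of 32 on Affy, MRL/lpr T pools had 3 called higher and 1 lower, whereas NOD T pools had 2 called higher and 3 lower. Of 18 other mitochondrial fatty acid oxidation genes on CL, 1 was called lower in MRL/lpr, and NOD had 1 in each direction. Of 22 on Affy, MRL/lpr had 1 higher call and 2 lower ones, and NOD had 4 lower calls only. The 4 included Acot13, a thioesterase (-0.83 ± 0.18, adjusted p = 0.00572), Acad11, an acyl-CoA dehydrogenase (-1.29 ± 0.26, adjusted p = 0.00306), and Hadh, the hydroxyacyl-CoA dehydrogenase of the spiral (-1.14 ± 0.24, adjusted p = 0.0044). Acot13 was also the lower call on CL (-0.63 ± 0.19, adjusted p = 0.0373). Lower peroxisomal calls in NOD on Affy included Pecr, the trans-2-enoyl-CoA reductase (-1.75 ± 0.32, adjusted p = 0.00166), and Gstk1, a glutathione transferase (-1.31 ± 0.22, adjusted p = 0.000637). Of the PPAR receptors, partners and targets, 3 of 12 were lower in MRL/lpr and 0 called in NOD on CL, and 0 of 14 in MRL/lpr and 1 (lower) in NOD on Affy. Of 16 citric acid cycle genes, CL called 1 higher in MRL/lpr and 0 in NOD, and Affy called 0 in both. In NOD, however, 13 of the 16 lay below 0 on CL and 10 of 16 on Affy. Their median NOD change was -0.28 on CL and -0.09 on Affy, where the mitochondrial members had -0.41 and -0.44. Their summed CL signal was 383 to 448 in NOD T pools against 539 to 546 in placebo pools. On Affy the NOD sums overlapped. A shift below 0 in NOD on CL was thus not particular to the members.

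Slc27a2, a very-long-chain acyl-CoA synthetase that also activates phytanic acid, was higher with T in both strains. CL values were 594, 629 and 460 in MRL/lpr T pools against 15.7, 23.1 and 23.1 in placebo pools, and 261, 258 and 302 in NOD T pools against 40.1, 49.0 and 35.5 in placebo pools. Affy values were 64565, 73162 and 78030 in MRL/lpr T pools against 1876, 2659 and 3648 in placebo pools, and 11591, 29778 and 31624 in NOD T pools against 5280, 6845 and 4310 in placebo pools. No placebo pool reached a T pool. The rise was 4.77 ± 0.21 in MRL/lpr and 2.73 ± 0.21 in NOD on CL (adjusted p = 4.62e-08 and 4.31e-06), and 4.77 ± 0.33 and 2.04 ± 0.33 on Affy (adjusted p = 4.4e-08 and 0.000562). It was smaller in NOD by -2.04 ± 0.29 on CL and -2.72 ± 0.47 on Affy (adjusted p = 0.00131 and 0.00208). The synthetase was thus higher and the hydroxylase of α-oxidation lower with T in both strains. Acaa1b, the peroxisomal thiolase copy, read 2041, 2503 and 2303 in MRL/lpr T pools against 278, 283 and 246 in placebo pools on Affy and rose by 3.08 ± 0.38 (adjusted p = 5.22e-05). In NOD it read 265, 705 and 665 in T pools against 87.6, 246 and 129 in placebo pools (1.83 ± 0.38, adjusted p = 0.00426).

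Ppara itself was faint. On CL it read 0.95, 1.06 and 1.23 in MRL/lpr T pools against 0.61, 0.90 and 0.72 in placebo pools (0.55 ± 0.31, adjusted p = 0.312), and it changed by 0.05 in NOD. The Affy probe set did not pass the filter on dim probes. Its level was therefore not resolved by either platform.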

How the data were processed

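RNA of pooled exorbital lacrimal glands (4 groups of 3 pools) was read on CodeLink and Affymetrix arrays, 24 arrays in all. The authors deposited CL spot intensity after background subtraction, divided by the array median. The Affy intensity of each probe set was deposited from Microarray Suite 4.0 (submitters' notes). Deposited Affy trimmed means ran from 22.1 to 150, although the methods name 500, so each array was rescaled to 500.

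Values under a floor (0.5 on CL, 70.5 on Affy) were set to it, logged (log2), and filtered on dim probes. A 4-group model over 12 arrays per platform was fitted with limma 3.58.1 (R 4.3.3), with trend and Benjamini-Hochberg adjustment, and tested on simulated data. 5 comparisons per platform were made: T against placebo per strain, their difference, and NOD against MRL/lpr per treatment. CL symbols were listed for 11377 probes. On Affy 691 probe sets with several symbols were not named, and 2847 CL control or unlisted spots were not used. Pool values were planned for members called in the same direction on both platforms, members called on 1 with a change over 1 and pools apart, and the 3 brightest members of each organelle, and up to 3 genes per other list could be named. Pool values of other called members, of Ppara and of dimmer probe sets were added after their values were seen. The members and lists were chosen with earlier results of these data known. Pools held different mice, so p-values measure biological and array spread together, and 3 arrays per group limit the precision. Alternatives changed the scaling, background correction, floor, filter, variance model, samples and test.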

Additional observations from a re-analysis of the deposited data

Results flagged for a closer look

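The T change was called different between the strains for 4 members, by the test of the difference itself (NOD change minus MRL/lpr change, limma, adjusted over all probes): 1 of 33 on CL, against 8.51% of all genes, and 3 of 36 on Affy, against 4.61%. Phyh on Affy gave -1.90 (adjusted p = 0.0458), from -4.45 in NOD and -2.55 in MRL/lpr. Etfb on Affy gave -0.99 (adjusted p = 0.034), from -1.23 in NOD and -0.25 in MRL/lpr. Crat on Affy gave -1.55 (adjusted p = 0.0403), from -0.26 in NOD and 1.29 in MRL/lpr. Pex11a on CL gave -1.21 (adjusted p = 0.0485), from -0.00 in NOD and 1.20 in MRL/lpr. In each case the other platform gave a difference of the same sign that was not called: -1.65 for Phyh, -0.78 for Etfb and -0.55 for Crat on CL, and -1.31 for Pex11a on Affy. The calls were lost in 10 (Phyh), 7 (Etfb), 8 (Crat) and 9 (Pex11a) of 12 fits without 1 pool. All 3 Affy calls were lost with arrays scaled to their own median and with signals as deposited, where Etfb changed sign (0.25). The Pex11a call was lost with quantile normalization, a lower floor, no filter, the replicate block or normexp.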

How the results depend on the processing

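Only members called in the fit used here were followed through the alternatives, so calls gained under an alternative are not counted. Some alternatives left out a pool of neither group compared, which moves the shared spread but not the change. Of the followed members' values, 881 kept their direction and side of the threshold, 188 fell short of it and 7 changed sign. All 7 came from Affy signals as deposited, a scaling that moved the median of all probes to -0.26 (T in MRL/lpr), 0.62 (T in NOD), 0.96 (strain difference in the T change), 1.52 (strain under T) and 0.46 (strain under placebo). They were Eci1 with T in NOD (0.0369), Etfb in the strain difference (0.2486) and, in NOD against MRL/lpr under T, Acadm (1.2314), Amacr (0.2024), Eci1 (0.5536), Etfb (0.9703) and Phyh (0.0818). Member counts there were 1, 4, 0, 30 and 0 in that order, with 3 higher and 1 lower for T in NOD and 30 higher under T. Over all probes, T in NOD gave 989 higher and 660 lower calls as scaled here and 1989 and 49 as deposited. NOD against MRL/lpr gave 964 higher and 934 lower calls under T and 318 and 637 under placebo as scaled here, 1205 and 500, and 339 and 397, with own-median scaling, and 12937 and 36, and 87 and 40, as deposited. The T changes of Phyh stayed called without any 1 pool, in both strains and on both platforms. So did those of Acadm in MRL/lpr and of Acadl and Acot1 in NOD on both platforms. The same held on CL for Acot1 and Pex11a in MRL/lpr and Hadhb in NOD, and on Affy for Acadm and Etfb in NOD. Some of these calls were lost under other alternatives.

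Counts of members called moved by over 1.5 times as follows, and the cause was not tested. With the methods' t-test, unadjusted, CL gave 10 (T in MRL/lpr), 12 (T in NOD) and 12 (strain under placebo), and Affy 14 (T in MRL/lpr) and 7 (strain under placebo). Unadjusted calls over all probes were not counted, so these counts cannot be set against a background. After Benjamini-Hochberg, CL gave 3 (T in NOD), 2 (strain under placebo) and 1 (strain under T), and Affy 3 (T in MRL/lpr), 0 (T in NOD) and 1 (strain under T). Over all probes this test gave 276 higher and 487 lower calls for T in NOD on CL, and 34 and 30 on Affy. The limma fit used here gave 1071 and 1171, and 989 and 660. For the strain difference in the T change, CL gave 0 with quantile normalization, a lower floor, no filter or normexp, and 2 with the floor at the median or array weights. Over all CL probes 528 were called higher and 566 lower as fitted here. In that order, the settings gave 564 and 486, 397 and 448, 470 and 559, 674 and 493, 560 and 659, and 639 and 756. Affy gave 1 with the replicate block or without a trend, 6 with array weights and 0 with arrays scaled to their own median. Over all probe sets 537 were called higher and 164 lower as fitted here. The replicate block gave 499 and 142, no trend 493 and 114, array weights 940 and 578, and own-median scaling 398 and 77. Normexp gave 3 on CL for strain under T, with 911 higher and 843 lower calls over all CL probes, against 758 and 932. On Affy, T in NOD gave 5 with each strain fitted alone or without a trend and 14 with array weights. Over all probe sets these fits gave 750 higher and 374 lower calls, 931 and 529, and 2183 and 2023. Strain under T gave 10 with array weights, beside 1564 higher and 1728 lower calls over all probe sets, against 964 and 934 as fitted here. Own-median scaling gave 4 for T in MRL/lpr and 3 for strain under T. Over all probe sets it gave 347 higher and 532 lower calls, and 1205 and 500. Of the Affy T calls, those of Acaa2, Acadvl and Crot in MRL/lpr and Acot1 in NOD were lost with no filter, and those of Abcd3 in both strains, Acaa2 and Crot in MRL/lpr, and Decr1 and Eci1 in NOD without a trend.

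Fits without 1 pool gave 4 to 6 (T in MRL/lpr), 4 to 7 (T in NOD), 0 to 1 (strain difference), 1 to 4 (strain under placebo) and 5 to 7 (strain under T) on CL, and 3 to 12, 5 to 10, 0 to 4, 1 to 3 and 4 to 8 on Affy. Over all Affy probe sets, T in MRL/lpr ran in these fits from 323 higher and 321 lower calls to 1019 and 1141. Pool numbers are only numbers: with them as a replicate block, CL counts were 5, 5, 1, 4 and 6, and Affy counts 8, 8, 1, 1 and 5. Signal over background limits the faint members, Ppara and, on CL, Amacr in NOD, Scp2 and Abcd3.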
